A study of Rattus norvegicus with 18 samples.

Results

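The 10 genes described here encode chaperones and folding enzymes of the endoplasmic reticulum (ER), namely Hspa5, Hsp90b1, Dnajb9, Hyou1, Sdf2l1, Pdia4, Pdia6, Creld2, Calr and Canx. They were chosen by name, as the probes whose accession is annotated to one of these symbols, and all 10 were measured among the 21574 genes compared. Of these 21574, 10938 carry a gene symbol, and the rest are accessions without a symbol, each counted as a gene. Shares of all genes below are over both kinds. The study asked about the modes of action of 4 p-dialkoxy chlorobenzenes in rat primary hepatocytes, liver cells that are cultured without having been turned into a line. The cells were cryopreserved hepatocytes of male Sprague Dawley rats, whose age and number the labels do not give. The 18 cultures formed 6 groups of 3, each culture on 1 Agilent one-colour array. All were cultured for 24 h before a further 24 h with DDMB, CDMB, CDEB or DDEB at 300 µM, or with the solvent DMSO alone. The DMSO group VC_1 is the control of DDMB, CDMB and CDEB, and the DMSO group VC_2, on another lot of chips, is the control of DDEB. The labels give the compounds only as these codes, so no difference in structure is stated. They do not say whether the independent experiments used cells of different animals, and the p-values therefore measure the spread between these cultures.

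The ER is where secreted and membrane proteins fold, and hepatocytes, which release most plasma proteins, are rich in it. When unfolded protein builds up there, the sensors Ern1, Eif2ak3 and Atf6 start the unfolded protein response, through which the transcription factors Atf6 and Xbp1 raise the transcripts of ER chaperones. Hspa5 (BiP) is the Hsp70 chaperone of the ER and holds the sensors inactive, and its transcript is a common readout of that response.

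A promoter element known to bind Atf6 and Xbp1, the ER stress response element, is shown first because it is the sequence that several of these genes share. It was searched on both strands as CCAAT and CCACG with 9 bases between them in the RefSeq promoter windows of assembly GRCr8, which run from 250 bases before to 50 bases after a gene's start. Windows were listed for 9 of the 10 genes, 10 windows in all. The element was found in 5 of these 9 genes (Hspa5, Hsp90b1, Creld2, Canx and Calr). Among all 33469 windows, which include those of these genes, 22 held it (0.0657%). Each stretch is written 5′ to 3′ on the gene's strand with the outer CCAAT and CCACG, or their complements, in capitals. They lie at chr3:38452948-38453015 (plus strand, Hspa5), chr7:23012322-23012494 (minus, Hsp90b1), chr7:121789214-121789282 (plus, Creld2), chr10:35158044-35158107 (minus, Canx) and chr19:40213117-40213178 (plus, Calr). A match is a description of the letters and not a site shown to be bound.
Hspa5: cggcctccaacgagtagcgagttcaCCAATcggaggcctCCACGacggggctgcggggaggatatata
Hsp90b1: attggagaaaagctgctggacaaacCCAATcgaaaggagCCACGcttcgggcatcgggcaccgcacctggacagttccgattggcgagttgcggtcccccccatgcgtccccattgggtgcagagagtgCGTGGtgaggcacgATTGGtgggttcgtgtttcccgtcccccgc
Creld2: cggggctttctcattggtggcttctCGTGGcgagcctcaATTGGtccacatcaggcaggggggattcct
Canx: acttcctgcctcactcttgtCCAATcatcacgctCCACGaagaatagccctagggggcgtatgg
Calr: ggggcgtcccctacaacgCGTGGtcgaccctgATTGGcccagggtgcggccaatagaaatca

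Hyou1 held no such element, but held a shorter form of it, ATTGG and CCACG with 1 base between them, at 2 places, a form found in 17 of all 33469 windows (0.0508%). It also held TGACGTGG, a letter run known to bind Xbp1 and Atf6 and present in 0.595% of windows, from -191 to -184 before the start, where it overlaps the first short form (-188 to -178). Neither letter run was found in the windows of the other 8 genes. Hyou1 is shown for these places (chr8:53602669-53602829, plus strand), with the ends of both short forms in capitals. Sdf2l1 is shown because its values below ran against those of the other genes, as the 100 bases before its start (chr11:97376778-97376877, plus strand). There every CCAAT and CCACG on either strand is in capitals, and the full element was not found in its window.
Hyou1: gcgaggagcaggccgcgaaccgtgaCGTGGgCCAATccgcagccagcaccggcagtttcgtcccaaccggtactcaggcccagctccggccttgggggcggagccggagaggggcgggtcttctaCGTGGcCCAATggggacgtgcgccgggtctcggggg
Sdf2l1: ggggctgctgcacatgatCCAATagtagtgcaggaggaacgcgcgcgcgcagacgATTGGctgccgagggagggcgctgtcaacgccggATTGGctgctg

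Levels are given as the log2 of a probe's processed signal minus the array's 75th percentile, so 0 is the level of the 75th percentile and a step of 1 is a doubling. Every one of the 10 probes was well above background on all 18 arrays, and no spot was saturated. Hspa5 and Pdia6 were printed on 10 spots each, and the SD between the unflagged spots of an array had a median of 0.0414 for Hspa5 and 0.0563 for Pdia6. The hepatocyte label held against its markers, since 10 of 10 hepatocyte genes were well above background on all 18 arrays.

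Proliferation markers were high on 4 arrays, namely DDMB replicate 2, VC_1 replicate 3, DDEB replicate 3 and VC_2 replicate 3. The signal of 4 measured proliferation genes of 6 listed (Mki67, Ccnb1, Cdk1 and Bub1), summed as multiples of the 75th percentile, was 1.74, 2.64, 2.61 and 2.28 on these arrays. It lay between 0.692 and 1.15 on the other 14. Of 6 Kupffer cell or macrophage markers 2 were measured, and the lysosomal macrophage gene Cd68 stood at -1.15, -0.92, -0.44 and -0.56 on the same arrays. On the other arrays Cd68 was between 1.45 and 2.41, except DDMB replicate 3 at 0.07. Clec4f, which marks Kupffer cells, stayed between -6.12 and -3.58 on all 18. The summed stellate cell or fibroblast markers (5 of 7 measured) were highest of their group on each of the 4 arrays named first, at 1.572, 1.595, 1.63 and 1.774. So were the summed cholangiocyte markers (3 of 5 measured), at 5.036, 5.192, 4.96 and 4.839. The summed endothelial markers (2 of 6 measured) did not follow this, and were lowest of their group on DDEB replicate 3.

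The summed hepatocyte markers were lowest in their groups on DDMB replicate 2 (1875, against 2496 and 2098), VC_1 replicate 3 (1851, against 2428 and 2260) and VC_2 replicate 3 (2351, against 3052 and 2977). On DDEB replicate 3 the sum was 2876, between the 3007 and 2806 of the other DDEB arrays. In whole cultures, fewer cells of a type and less RNA per cell cannot be told apart. The same 9 of 10 genes, all but Sdf2l1, had their lowest value of the group on DDMB replicate 2, on VC_1 replicate 3 and on VC_2 replicate 3, and 6 of 10 on DDEB replicate 3. Sdf2l1 had the highest value of its group on VC_1 replicate 3, DDEB replicate 3 and VC_2 replicate 3. Whether the cell makeup of these cultures set the ER values was not tested.

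**Figure D1:**
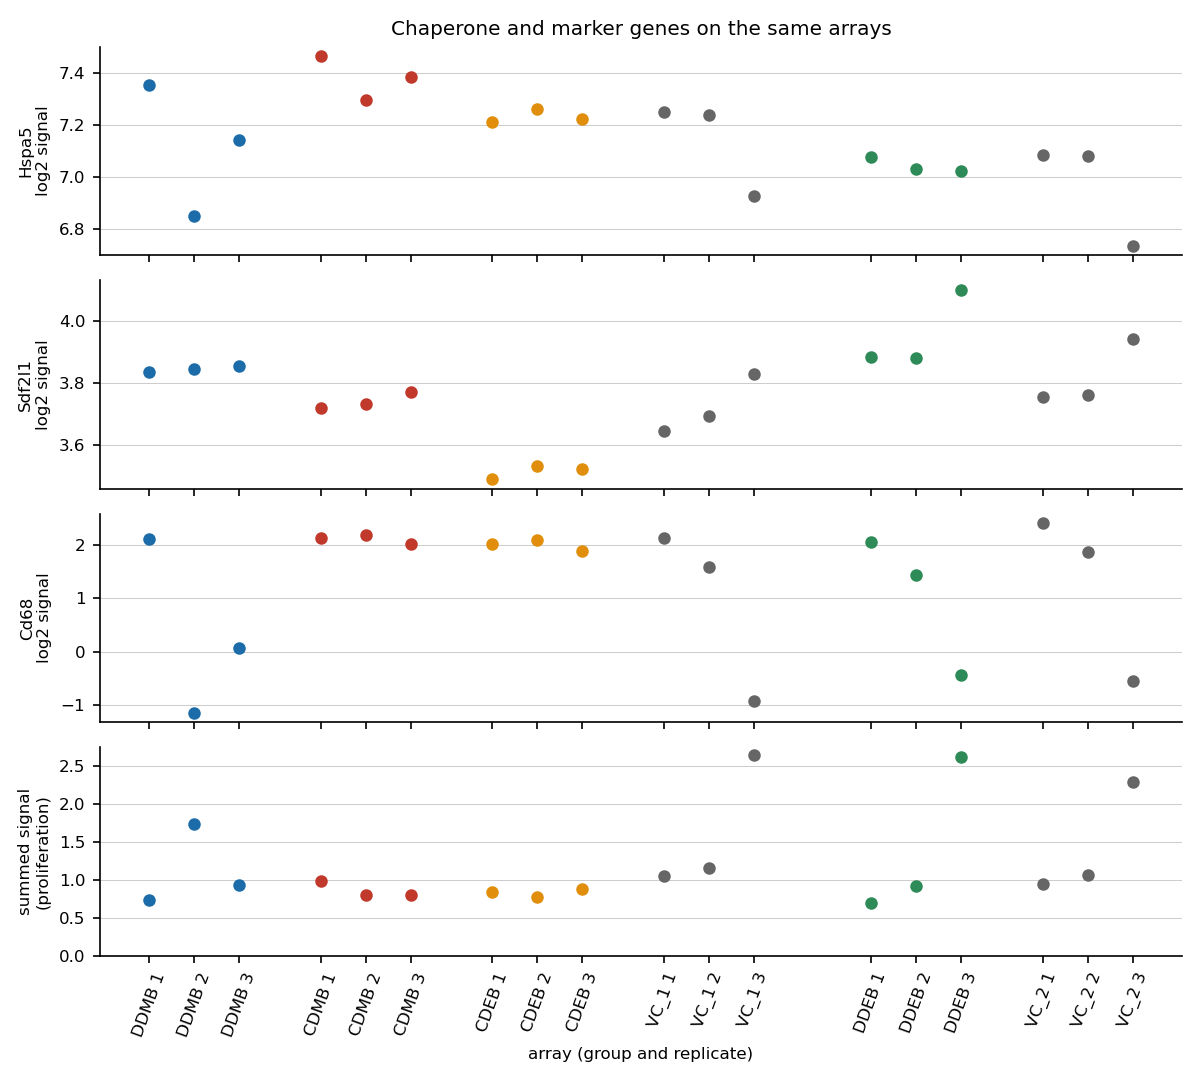
Each point is 1 array, and the groups run from left to right as DDMB, CDMB, CDEB, VC_1, DDEB and VC_2. The panels show the log2 signal of Hspa5, Sdf2l1 and Cd68 relative to the 75th percentile and the summed signal of 4 proliferation genes as multiples of it. VC_1 replicate 3 has Hspa5 at 6.93 and a proliferation sum of 2.64 (the highest of the 18 arrays).

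DDMB and VC_1 lay on the same slide. No ER chaperone gene was called with DDMB. The call, here and below, is limma's test at a Benjamini-Hochberg adjusted p under 0.05 over all 21574 genes of a comparison. With DDMB 0 of 10 genes were called and 0 of 10 lay at an unadjusted p under 0.05, where 0.556% and 9.9% of all genes did. Hspa5 stood at 7.36, 6.85 and 7.14 with DDMB, against 7.25, 7.24 and 6.93 in VC_1. The 2 groups overlapped, each with 1 low array, and the change was -0.02 ± 0.13 (log2 ± SE, n = 3 each, 95% interval -0.29 to 0.25). The interval for Hsp90b1 (GRP94), the Hsp90 of the ER that folds a limited set of secreted proteins, was wider (-0.48 to 0.45 around -0.01).

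The changes of the 10 genes with DDMB lay between -0.12 (Canx) and 0.12 (Sdf2l1), with a median of -0.04, beside 0.01 over all genes. The sign of this median rested on single arrays. It was 0.04 without VC_1 replicate 1, 0.03 without VC_1 replicate 2, -0.17 without VC_1 replicate 3, -0.17 without DDMB replicate 1 and 0.09 without DDMB replicate 2. Sdf2l1, a cofactor of ER J-domain proteins that keeps unfolded clients soluble, was the 1 gene whose arrays did not overlap. It stood at 3.84, 3.85 and 3.85 with DDMB, against 3.64, 3.69 and 3.83 in VC_1, where 8.75% of all genes had 3 DDMB arrays above 3 VC_1 arrays and 5.53% had them below. Its change of 0.12 ± 0.07 did not pass (adjusted p = 0.656), nor did it without VC_1 replicate 3 (0.18 ± 0.08, adjusted p = 0.440).

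The 10 genes had higher means with CDMB than in VC_1, without a call. With CDMB 0 of 10 genes were called (0.0417% of all genes) and 3 of 10 lay at an unadjusted p under 0.05 (13.2% of all genes), namely Pdia4, Hsp90b1 and Calr. All 10 changes were positive, where 53.2% of all genes had a positive change, and their median was 0.30, beside 0.01 over all genes. For 8 of 10 genes every CDMB array lay above every VC_1 array, as for 13.5% of all genes. The exceptions were Canx and Sdf2l1.

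CDMB and VC_1 lay on different slides, so compound and slide cannot be told apart in this comparison. Among the spike-in controls, the dim one had a signal of 1.23% to 1.32% of the bright one in the CDMB group and 1.98% to 2.04% in VC_1. This ratio also differed within a slide, at 1.09% and 1.18% on DDEB replicates 1 and 2 and 1.73% to 1.83% in VC_2 beside them. Its part in the result was not tested.

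Among the Hsp70 and Hsp90 system, Hspa5 stood at 7.46, 7.30 and 7.39 with CDMB, and Hsp90b1 at 5.84, 5.80 and 5.76. In VC_1 Hspa5 had the values given above, and Hsp90b1 stood at 5.59, 5.47 and 4.84. The CDMB arrays were tight and the VC_1 arrays spread down to the low replicate 3. The changes were 0.24 ± 0.13 for Hspa5 (adjusted p = 0.414) and 0.50 ± 0.21 for Hsp90b1 (adjusted p = 0.351). Dnajb9 (ERdj4), a J-domain partner of BiP, stood at 2.41, 2.28 and 2.38 with CDMB and 2.17, 2.07 and 1.42 in VC_1, a change of 0.47 ± 0.22. Hyou1 (GRP170), the nucleotide exchange factor of BiP, stood at 4.03, 4.02 and 4.14 with CDMB, against 3.78, 3.89 and 3.26 in VC_1, a change of 0.42 ± 0.22. For both genes the arrays did not overlap, and neither passed (adjusted p = 0.385 and 0.414).

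Among the disulfide enzymes, Pdia4 (ERp72) came nearest to the threshold with CDMB. It stood at 1.96, 1.80 and 1.84 with CDMB, against 1.58, 1.56 and 1.41 in VC_1. The difference was larger than the spread of either group, at 0.35 ± 0.08 or 1.27-fold (95% interval 1.13 to 1.43, adjusted p = 0.156). Pdia6 (P5), another isomerase of the family, stood at 6.03, 5.90 and 5.93 with CDMB and 5.83, 5.84 and 5.82 in VC_1. Its SD in VC_1 was 0.0059, the arrays did not overlap, and its change was 0.12 ± 0.06 (adjusted p = 0.394). Creld2, an ER-resident protein with disulfide isomerase activity, stood at 3.42, 3.42 and 3.36 with CDMB, against 3.28, 3.11 and 2.52 in VC_1, a change of 0.43 ± 0.23 (adjusted p = 0.434).

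Calr and Canx encode calreticulin and calnexin, the soluble and the membrane-bound lectin that retain glycoproteins until they are folded. Calr stood at 5.03, 4.95 and 4.96 with CDMB, against 4.85, 4.84 and 4.69 in VC_1, and its change was 0.19 ± 0.09 (adjusted p = 0.375). Canx stood at 5.01, 4.88 and 4.93 with CDMB and 4.96, 4.93 and 4.70 in VC_1, and its arrays overlapped. Sdf2l1 overlapped as well, at 3.72, 3.73 and 3.77 with CDMB, with a change of 0.02 ± 0.07 (95% interval -0.14 to 0.18).

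The CDMB difference was smaller without VC_1 replicate 3. The median of the 10 changes was then 0.17, 9 of 10 were positive (all but Canx), and 1 of 10, Pdia4, lay at an unadjusted p under 0.05. Its change was then 0.29 ± 0.09 (adjusted p = 0.574). Hsp90b1, Dnajb9, Hyou1 and Creld2, which were low on that array, then had changes of 0.27, 0.24, 0.23 and 0.21.

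**Figure D2:**
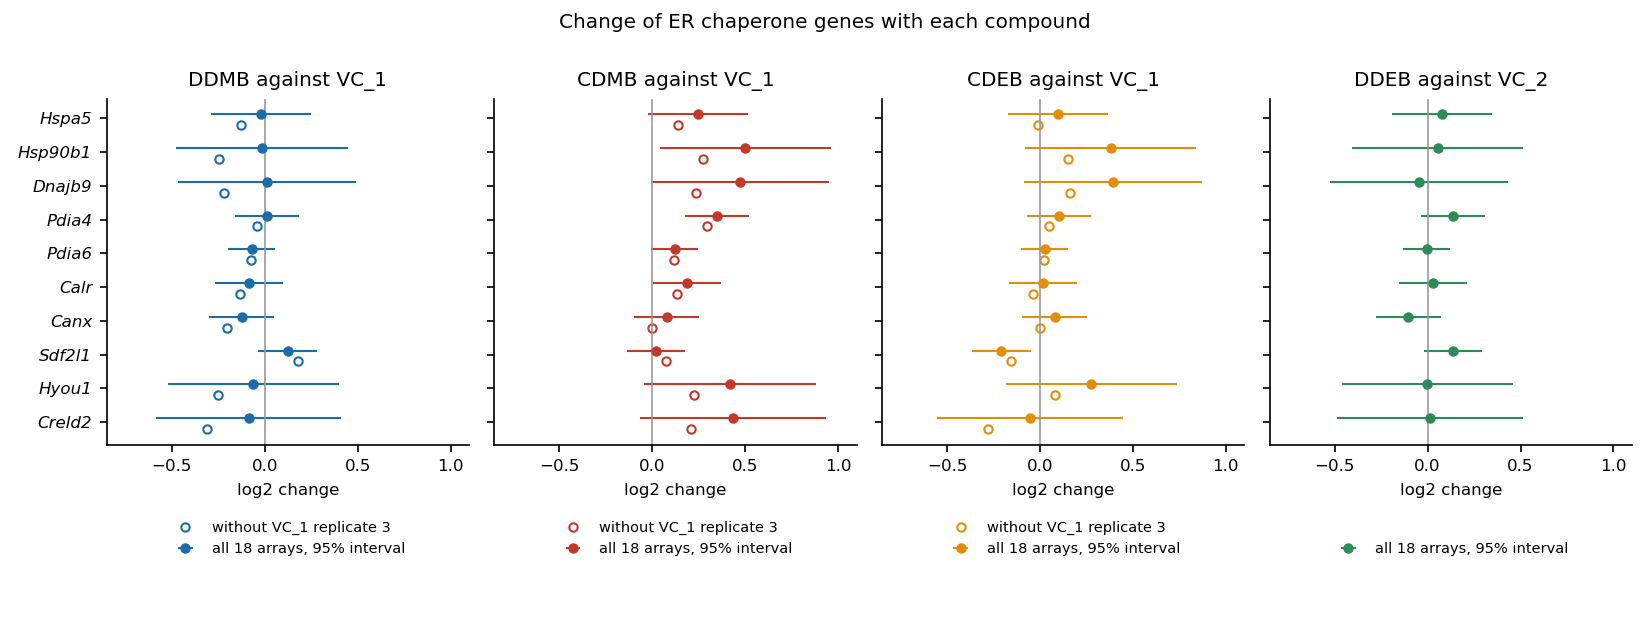
Each row is 1 gene and the horizontal axis is the log2 change of a compound over its DMSO control, named above each panel. Filled points with bars are estimates with 95% intervals from all 18 arrays, and open points leave out VC_1 replicate 3. The CDMB points all lie above 0 with all arrays, at a median of 0.30, and move towards 0 without that array, to a median of 0.17.

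With CDEB, also on another slide than VC_1, 8 of 10 changes were positive, where 51.6% of all genes had a positive change. This comparison shares its VC_1 arrays with those of DDMB and CDMB. Of 10 genes 0 were called (0.111% of all genes), 1 lay at an unadjusted p under 0.05 (13.3% of all genes), and the median change was 0.09. Without VC_1 replicate 3 the median was 0.01 and 5 of 10 changes were positive. The 1 gene was Sdf2l1, which stood at 3.49, 3.53 and 3.52 with CDEB, against 3.64, 3.69 and 3.83 in VC_1. Every CDEB array lay below every VC_1 array, as for 13.9% of all genes. Its change was -0.21 ± 0.07 (95% interval -0.36 to -0.05, adjusted p = 0.263), and -0.15 ± 0.08 without VC_1 replicate 3 (adjusted p = 0.735).

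Hsp90b1, Dnajb9 and Pdia4 had every CDEB array above every VC_1 array, as did 15.9% of all genes. Hsp90b1 stood at 5.70, 5.72 and 5.63 and Dnajb9 at 2.29, 2.27 and 2.29 with CDEB. Their changes were 0.38 ± 0.21 and 0.39 ± 0.22 with all arrays, and 0.15 and 0.16 without VC_1 replicate 3. Creld2 stood at 2.85, 2.97 and 2.93 with CDEB, inside the VC_1 range, with a change of -0.05 ± 0.23. The CDEB arrays gave a spike-in ratio of 1.21% to 1.28%, below that of VC_1.

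With DDEB no ER chaperone gene was called against VC_2. Of 10 genes 0 were called (0.844% of all genes), and 0 lay at an unadjusted p under 0.05 (15.1% of all genes). The arrays of the 2 groups overlapped for all 10 genes, whereas every DDEB array lay above every VC_2 array for 10.1% of all genes and below for 6.1%. Hspa5 stood at 7.08, 7.03 and 7.02 with DDEB, against 7.08, 7.08 and 6.73 in VC_2. The VC_2 values apart from the low replicate 3 lay just above the DDEB values, and the change was 0.08 ± 0.13 (95% interval -0.19 to 0.35). Pdia4 stood at 1.15, 1.25 and 1.45 with DDEB and 1.17, 1.16 and 1.11 in VC_2 (0.13 ± 0.08, adjusted p = 0.444). Sdf2l1 stood at 3.88, 3.88 and 4.10 with DDEB, against 3.75, 3.76 and 3.94 in VC_2 (0.14 ± 0.07, adjusted p = 0.396).

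The median change with DDEB was 0.02. It was -0.10 without VC_2 replicate 3, 0.10 without VC_2 replicate 1 or 2, 0.00 without DDEB replicate 1 and 0.08 without DDEB replicate 3, the DDEB array on a slide of its own. Hyou1 shows how far single cultures differed. It stood at 3.87, 3.72 and 3.28 with DDEB and 3.82, 3.86 and 3.19 in VC_2, with the low value on replicate 3 in both groups, and its change was 0.00 ± 0.22.

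**Figure D3:**
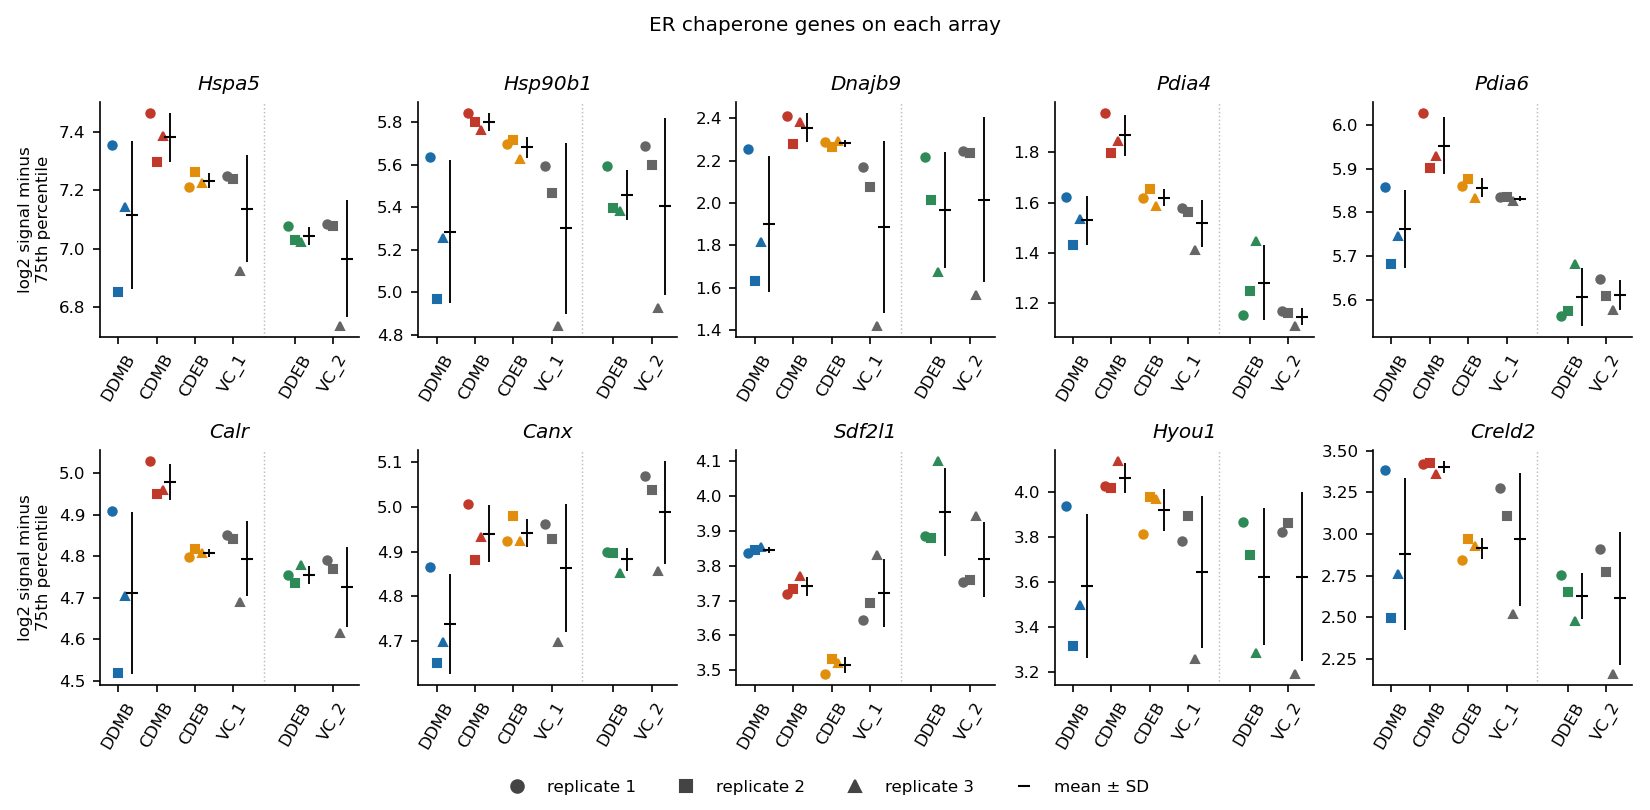
Each panel is 1 gene and each point 1 array, with the log2 signal minus the array's 75th percentile on the vertical axis, whose range differs between panels. Groups run from left to right as DDMB, CDMB, CDEB and VC_1, then DDEB and VC_2, and the black bar is the mean ± SD of 3 arrays. The CDMB arrays of Pdia4 (1.80 to 1.96) lie above all VC_1 arrays (1.41 to 1.58), and replicate 3 of VC_1 and VC_2 is the lowest of its group in every panel but that of Sdf2l1.

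All 4 compounds were given at 1 dose and 1 time, so they were also compared with each other in 6 pairs. CDEB and CDMB lay on 1 slide. Of 10 genes 9 were lower with CDEB than with CDMB in their means, with a median difference of -0.15, beside 0.00 over all genes. Every CDEB array lay below every CDMB array for 8 of 10 genes, where 9.49% of all genes showed this, and above for 0 of 10 (10.2% of all genes). None of these differences passed. Over all genes limma called 0 of 21574 (0%), with 1016 (4.71%) at an unadjusted p under 0.05, 2 of them among the 10 genes.

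Those 2 were Pdia4 and Sdf2l1. Pdia4 stood at 1.62, 1.65 and 1.59 with CDEB, against 1.96, 1.80 and 1.84 with CDMB, a difference of -0.25 ± 0.08 (95% interval -0.42 to -0.08, adjusted p = 0.774). Sdf2l1 differed by -0.23 ± 0.07 (95% interval -0.38 to -0.07, adjusted p = 0.773). The largest difference was that of Creld2, at -0.49 ± 0.23 (95% interval -0.99 to 0.01), and its 3 CDEB arrays (2.85 to 2.97) lay below its 3 CDMB arrays (3.36 to 3.42). The test pools the spread over all 6 groups. For Creld2 the SD was 0.06 with CDEB and 0.04 with CDMB, against 0.45 with DDMB and 0.40 in VC_1. Canx had a difference of 0.00 with an interval of -0.17 to 0.18.

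DDMB and CDMB lay on different slides. The CDMB arrays are the same ones that were compared with VC_1 and with CDEB above, so these results are not independent. Among DDMB, CDMB, CDEB and VC_1, CDMB had the highest mean for 8 of 10 genes. Here 9 of 10 genes were lower with DDMB, with a median difference of -0.30, and 7 of 10 lay at an unadjusted p under 0.05 (16.3% of all genes). All DDMB arrays lay below all CDMB arrays for 7 of 10 genes (12% of all genes), and above them for Sdf2l1 (14.9% of all genes). No gene of the 10 was called (0.677% of all genes). The nearest was Pdia4, at 1.62, 1.43 and 1.54 with DDMB, against the CDMB values above, a difference of -0.34 ± 0.08 (adjusted p = 0.0705). Without DDMB replicate 1 it was called (-0.38 ± 0.09, adjusted p = 0.0389), and so was Calr (-0.37 ± 0.08, adjusted p = 0.0281). In that fit 2.44% of all genes were called. DDMB replicate 1 was the highest DDMB array for both Pdia4 and Calr, so leaving it out made their differences larger. No other single array left out gave a call among the 10 genes in this pair. With slide as a random block 0 of all 21574 genes were called in it.

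**Figure D4:**
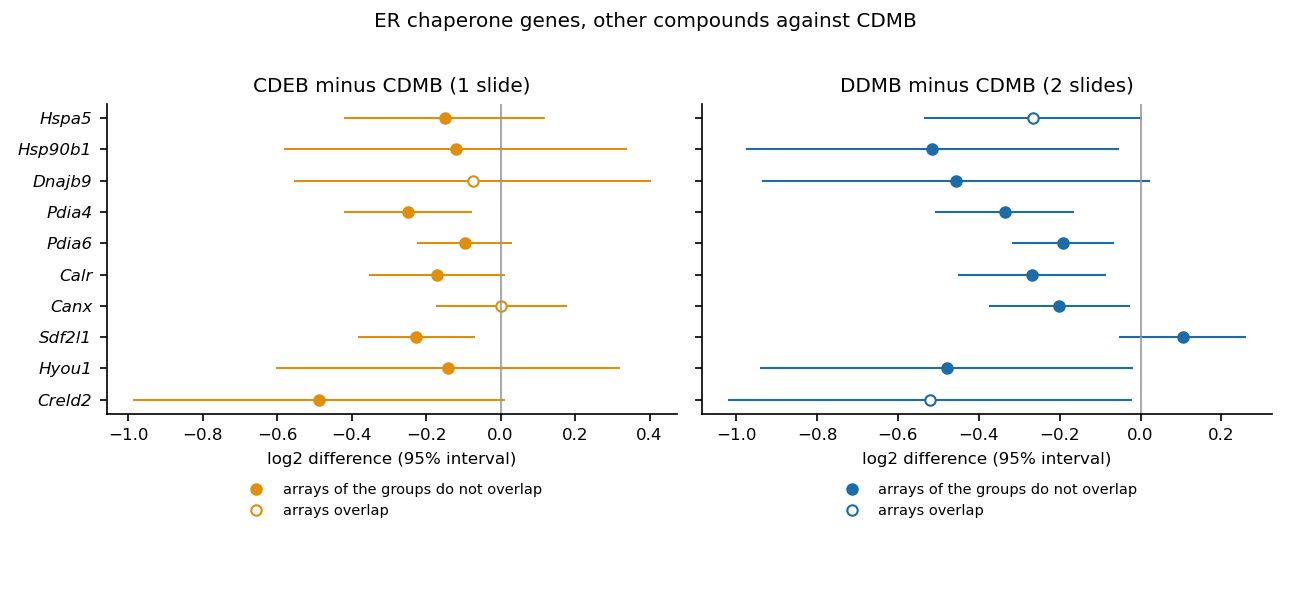
Each row is 1 gene and the horizontal axis is the log2 difference CDEB minus CDMB (left, 1 slide) or DDMB minus CDMB (right, 2 slides), with 95% intervals as bars. Filled points are genes whose 3 arrays of one group all lie on one side of the 3 of the other. In the left panel 9 of 10 points lie below 0, at a median of -0.15, and in the right panel 9 of 10, at a median of -0.30.

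Between DDMB and CDEB, again on different slides, Sdf2l1 passed within its comparison (3.27% of all genes did). Its arrays were 3.84, 3.85 and 3.85 with DDMB, against 3.49, 3.53 and 3.52 with CDEB. The groups lay apart with almost no spread within either, and the difference was 0.33 ± 0.07 or 1.26-fold (95% interval 1.13 to 1.40, adjusted p = 0.0294). Adjusted over all genes and all 6 pairs together it did not pass (adjusted p = 0.0987). The call was lost when the slide was a random block (adjusted p = 1.00), with only the 6 arrays compared (0.0614) and without any 1 CDEB array (0.0948 to 0.106) or DDMB replicate 2 or 3 (0.0905 and 0.104). The other 9 genes had differences between -0.39 and -0.03. Of the 10 genes 2 lay at an unadjusted p under 0.05 (20.2% of all genes), namely Sdf2l1 and Canx. Every DDMB array lay above every CDEB array for Sdf2l1 (18.5% of all genes), and below for Dnajb9 and Canx (15.4% of all genes).

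DDEB was compared through its effect over VC_2. None of the 10 genes was called for DDEB against DDMB (0% of all genes), against CDMB (0%) or against CDEB (0.00464%), with 0, 0 and 1 of 10 at an unadjusted p under 0.05 (5.78%, 5.82% and 6.61% of all genes). That 1 gene was Sdf2l1 against CDEB, with a difference of effects of 0.34 ± 0.10 (adjusted p = 0.583). The intervals of these differences reached up to 0.707 on either side of the estimate, so the compounds are not shown to act alike.

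The genes also differed in how much of their variance lay between cultures of 1 group. This share was 62.4% for Dnajb9, 61.2% for Hyou1 and 58.6% for Hsp90b1, and 9.25% for Pdia4, 11.3% for Pdia6 and 18.7% for Sdf2l1, beside a median of 45.2% over all genes. For the first 3 genes most of the spread was thus among cultures treated alike. A low share is not a measure of a compound's effect, because the DMSO groups on different lots of chips differed too. Pdia4 had a mean of 1.52 in VC_1 and 1.15 in VC_2, and Pdia6 5.83 and 5.61. The 18 arrays share their cultures, slides and scaling over the genes and include both lots of chips. Across them the 36 pairs of genes without Sdf2l1 had Pearson correlations of 0.04 to 0.97, with a median of 0.77. The 9 pairs with Sdf2l1 had -0.61 to -0.35.

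The genes most like Hspa5 over the 18 arrays, outside the 10, were Tmem41a, Golt1a, Fem1a and Plpp5 (Pearson r = 0.95 each) and Ddost (0.94), a subunit of the enzyme that attaches glycans to proteins in the ER. Among the other 9 chaperone genes Creld2 ranked highest, at place 14 of 21573 (r = 0.94), followed by Calr at place 51 (0.92) and Hyou1 at place 408 (0.86). Canx ranked at place 4964 (0.48) and Sdf2l1 at place 18052 (-0.52). Canx followed Hspa5 closely within groups (r = 0.94 of the deviations from the group means).

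Other genes of the ER folding machinery were listed in 8 groups, of which 90 of 101 genes were measured. Among the UPR sensors and transcription factors 0 of 10 measured genes were called with any of the 4 compounds. Here and in the lists below, the shares of all genes called against control are those given above, 0.556% with DDMB, 0.0417% with CDMB, 0.111% with CDEB and 0.844% with DDEB. The list's median was -0.04 with DDMB (5 of 10 positive) and 0.10 with CDMB, and the CDMB median was -0.01 without VC_1 replicate 3. Ddit3 (CHOP), a transcription factor raised late in that response, had changes of 0.24 ± 0.20 with DDMB, 0.44 ± 0.20 with CDMB, -0.09 ± 0.20 with CDEB and 0.20 ± 0.20 with DDEB. Mbtps2, a protease that releases active Atf6, had the largest change of the list with DDMB, at -0.45 ± 0.19 (unadjusted p = 0.0334), and was at -0.33 ± 0.19 with CDEB. Xbp1 was at 0.35 ± 0.27 with CDMB and 0.34 ± 0.27 with CDEB, and none of these changes passed (adjusted p = 0.366 to 0.855). The probes do not show which splice form of Xbp1 was present.

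Of 6 BiP co-chaperones and exchange factors 0 were called. Dnajb11 (ERdj3), the J-domain protein with which Sdf2l1 forms a complex, was at 0.39 ± 0.14 with CDMB (adjusted p = 0.285), and Sec63, which draws BiP to the translocon, at 0.51 ± 0.17 with CDEB (adjusted p = 0.252). Of 13 genes of disulfide formation 0 were called. Against control the isomerase gene Txndc5 came nearest, at 0.38 ± 0.08 with CDEB (adjusted p = 0.0851), 0.39 ± 0.08 with CDMB (adjusted p = 0.114) and 0.30 ± 0.08 with DDEB (adjusted p = 0.0998). Ero1b, an oxidase that renews the disulfides of these enzymes, was at -0.30 ± 0.10 with DDEB (adjusted p = 0.198) and -0.23 ± 0.10 with DDMB (adjusted p = 0.475). Of 12 genes of glycan transfer and the calnexin cycle 0 were called, with medians of 0.17 for CDMB and 0.16 for CDEB that were 0.07 for both without VC_1 replicate 3. The largest CDMB change there was that of Lman1 (0.33 ± 0.17), a cargo receptor for glycoproteins leaving the ER.

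ER-associated degradation, which exports misfolded proteins to the proteasome, had 0 of 14 genes called against control. Its widest change was that of Derl3 with CDMB (0.74 ± 0.56, adjusted p = 0.567). Nploc4, a cofactor of the extracting ATPase, was at 0.33 ± 0.07 with DDEB (adjusted p = 0.0565), and its partner Ufd1 at 0.35 ± 0.08 with DDMB (adjusted p = 0.0759). With slide as a random block Ufd1 passed with DDMB, which shares the slide of VC_1 (adjusted p = 0.0386). Of 14 genes of translocation into the ER and 11 of the PERK and ATF4 arm 0 were called against control. That arm had the largest list median with DDEB, 0.24 with 11 of 11 changes positive (53% of all genes were positive), led by Vldlr (0.40 ± 0.39) and Ppp1r15a (0.37 ± 0.09, adjusted p = 0.0941).

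The cytosolic chaperones held the calls. Hspb1, a small heat shock protein outside the ER, rose with DDMB and with CDMB. It stood at 4.75, 4.54 and 4.64 with DDMB and at 4.47, 4.61 and 4.66 with CDMB, against 4.01, 3.91 and 3.64 in VC_1. All 6 treated arrays lay above the controls, and the same VC_1 arrays served both comparisons. Every DDMB array lay above every VC_1 array for 8.75% of all genes, and every CDMB array for 13.5%. The changes were 0.78 ± 0.11 with DDMB (adjusted p = 0.00473) and 0.72 ± 0.11 with CDMB (adjusted p = 0.0299). With only the 6 arrays compared in the fit both calls were lost. The CDMB call, across slides, was also lost with normexp background, with the deposited tables, with no filter on dim probes, with slide as a random block and when any 1 of its 6 arrays was left out. With CDEB Hspb1 was at 0.34 ± 0.11 (adjusted p = 0.229) and with DDEB at 0.46 ± 0.11 (adjusted p = 0.0674). Thus 1 of 10 cytosolic genes was called with DDMB and with CDMB, and 0 with CDEB and DDEB.

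Between DDMB and CDEB, on different slides, 4 of the 90 genes were called, where 3.27% of all genes were, so the share of these lists was near that of all genes. Hspb1 (0.45 ± 0.11), the inducible cytosolic Hsp90 gene Hsp90aa1 (0.51 ± 0.12) and Ufd1 (0.43 ± 0.08) were higher with DDMB (adjusted p = 0.0147 to 0.0400). The asparagine synthetase gene Asns, a target of ATF4, was lower (-0.32 ± 0.07, adjusted p = 0.0232). All 4 calls were lost with slide as a random block (adjusted p = 1.00 each), with no filter on dim probes (0.0535 to 0.113) and with only the 6 arrays compared (0.0567 to 0.0697), and each was lost without some single arrays. Over all lists the median changes against control ran from -0.05 to 0.10 for DDMB, 0.03 to 0.22 for CDMB, 0.01 to 0.16 for CDEB and -0.01 to 0.24 for DDEB. The 10 chaperone genes had a CDMB median above this range.

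**Figure D5:**
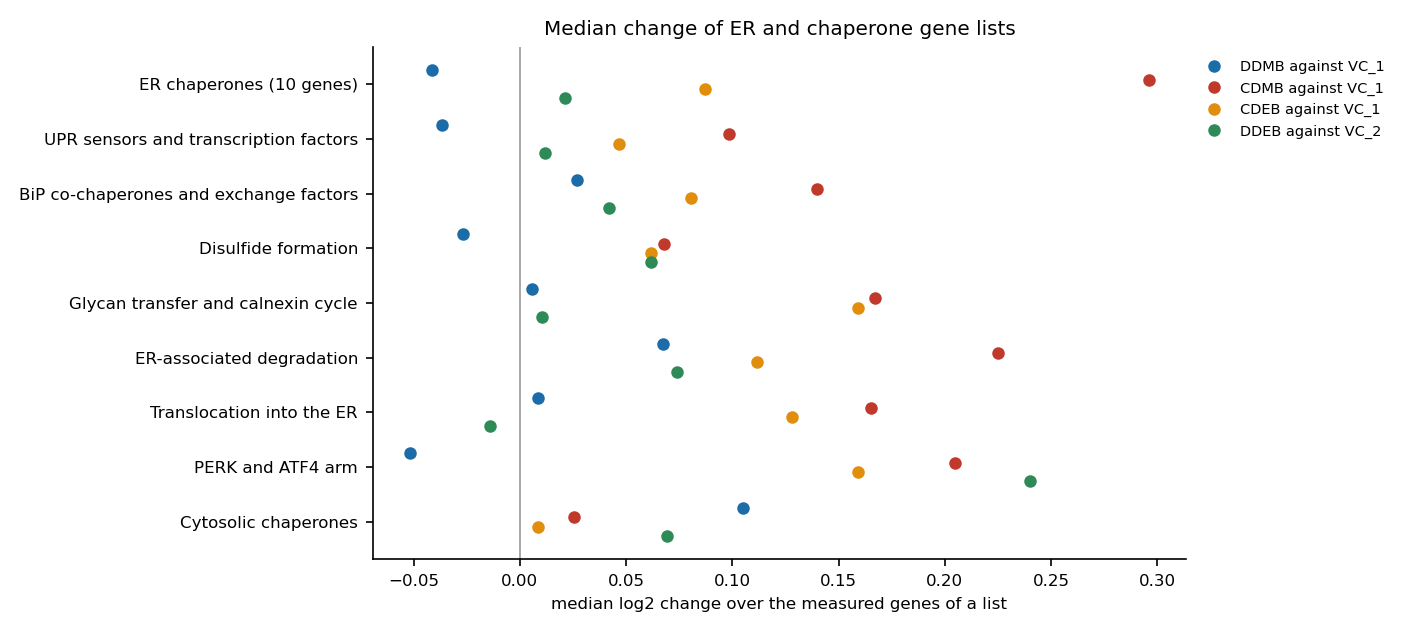
Each row is a list of genes and each point the median log2 change of its measured genes with 1 compound over its DMSO control. The 10 ER chaperone genes have the CDMB point at 0.30, and the cytosolic chaperones have it at 0.03. The points carry no error because no test of a list was made.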

How the data were processed

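The deposited scanner files hold the Cy3 intensity of each spot, and per the file headers it was read with Feature Extraction 10.7.1.1, background-subtracted and detrended by the authors' software. The authors also deposited tables of linear signal, normalized in 2 sets (VC_1 and VC_2 with their compounds). How they were scaled is not stated in the labels or files used here. For probes with a deposited value over 1 each column was a constant multiple of the scanner values (100% within 1%). The column medians lay between 0.045 and 0.075, and these tables served as an alternative.

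The 75th percentile of an array's processed intensity ran from 421 to 640. Precision is limited by the number of arrays. The share of spots well above background was 61.0% to 64.3%. Each probe was given the mean log2 intensity of its unflagged spots, less the array's 75th percentile over probes. Probes with all spots flagged on an array were left out (435 of 45598). A probe was kept when well above background on all 3 arrays of a group (25306), and the brightest probe stood for a gene. Accessions without version named 21109 probes through the RefSeq gene table of GRCr8. Canx had a second, dim probe, which was not used and whose group means lay further apart. Its mean ± SD was -3.675 ± 0.336 in VC_1, -3.956 ± 0.262 with DDMB, -3.402 ± 0.134 with CDMB and -3.389 ± 0.0947 with CDEB. It was -3.636 ± 0.467 in VC_2 and -3.931 ± 0.393 with DDEB. The file headers name build rn4, of which no coordinates are given.

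One fit of 6 group means to all 18 arrays used limma 3.58.1 under R 4.3.3 (lmFit, eBayes, 12 residual degrees of freedom), and was tested on simulated data. Adjusted p-values are Benjamini-Hochberg over all genes, and intervals are at 95%. The slides, of which there were 4, each had 1 scan, so both coincide. Replicate numbers were shared by the labels, and the main fit did not pair the samples by them. Correlations of same-numbered deviations ran from -0.421 to 0.557, and were 0.431, 0.0962 and 0.49 for DDEB against VC_2. Such correlations cannot settle whether a number stands for 1 shared experiment, which was not tested, and a replicate block served as an alternative. The genes, lists, tests and named genes (the 10 genes in each comparison, every called gene of a list or else examples from the 2 with the largest absolute change, and the 5 genes most like Hspa5) were chosen with earlier results of these data known.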

Additional observations from a re-analysis of the deposited data

Results flagged for a closer look

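The difference in Sdf2l1 between the effects of 2 compounds passed limma's test within its comparison, as did 3.27% of all genes. The level was higher with DDMB than with CDEB by 0.33 on the log2 scale (± 0.07 SE, n = 3 each, adjusted p = 0.0294), in 3 of 3 DDMB arrays against 3 of 3 CDEB arrays. Both compounds are set against VC_1, with Sdf2l1 at 0.12 ± 0.07 for DDMB and -0.21 ± 0.07 for CDEB. DDMB lay on the slide of VC_1 and CDEB on another, so compound and slide cannot be told apart.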

How the results depend on the processing

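Against control, the count of 0 called chaperone genes held for all 4 compounds under quantile normalization, normexp background, the deposited tables, no filter, the mean of a gene's probes, only the arrays compared, both slide blocks where run, the replicate block, and with each array left out. The exception was array weights, where limma called 3 genes with DDMB (Canx, Hyou1 and Sdf2l1), 1 with CDMB (Pdia4) and 1 with CDEB (Sdf2l1). Array weights called 23.3% of all genes with DDMB, 5.82% with CDMB, 13.5% with CDEB and 12.8% with DDEB. The usual estimate of the weights did not converge, and a gene-by-gene one was used, chosen after that was seen. The normexp values rest on the median spot signal. Of 660 single-gene values under alternatives 653 kept their side of the threshold and moved by less than the spread. Of the others 5 passed under array weights, and the value of Pdia6 with CDEB moved to -0.04 under quantile normalization and -0.03 under normexp.

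Over the 6 pairs the count of 1 became 0 with no filter, with only the arrays compared and with slide as a random block. It was 20 with array weights and 0 to 3 with single arrays left out. Array weights called 0.83% to 39.8% of all genes in a pair, with 29.4% for DDMB minus CDMB and 39.8% for DDMB minus CDEB. With single arrays left out the share of all genes was 0% to 4.32%. Chosen after seeing the data for these pairs, slide as a fixed block gave 2. They were Sdf2l1 between DDMB and CDEB (7.95% of all genes) and Pdia4 between DDMB and CDMB (2.12%). This block takes out only DDEB replicate 3, leaves the differences among DDMB, CDMB and CDEB as they were and adjusts no slide difference between them. Leaving out the 4 arrays of high proliferation markers, also chosen then, gave 2 as well, and 0 calls against control. The shares of all genes were then 9.75% between DDMB and CDEB and 2.99% between DDMB and CDMB. The deposited tables allow 3 of these pairs. The difference in Sdf2l1 stayed at 0.33 where its call was lost with no filter, only the arrays compared or slide as a random block, and at 0.32 to 0.34 with single arrays left out. The 2 calls in the other lists became 1 with normexp, the deposited tables or no filter, 0 with only the arrays compared, 44 with array weights, 8 with the replicate block, 3 with slide as a fixed block (Ufd1 with DDMB added), and 1 to 2 with single arrays left out. These calls are over 90 genes and 4 compounds. Of all genes array weights called 5.82% (CDMB) to 23.3% (DDMB), and the replicate block 0.0742% (CDMB) to 1.95% (DDEB). With slide as a random block the calls in these lists stayed 2, with Ufd1 for DDMB in place of Hspb1 for CDMB. The replicate block left 0 chaperone calls against control.

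Over all genes the calls were 120 with DDMB (39 to 204 with single arrays left out, 0 with only the arrays compared, 5021 with array weights), 9 with CDMB (0 to 6, 0 and 1256), 24 with CDEB (0 to 9, 0 and 2910) and 182 with DDEB (48 to 353, 0 and 2753). Under the replicate block they were 168, 16, 38 and 421. Under the other settings run the counts lay between the lowest and highest of these. Quantile normalization split the DDEB calls into 155 higher and 170 lower, against 128 and 54 as scaled here, and the DDMB calls into 32 and 75, against 50 and 70.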
